A study of Mus musculus with 8 samples.

Results

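The EGR and AP-1 transcription factors were taken from the deposited gene table as the rows whose symbol was Egr1, Egr2, Egr3, Fos, Fosb, Fosl1, Fosl2, Jun, Junb or Jund. These are 10 of 55401 genes, 3 of the EGR family, 4 of the FOS family and 3 of the JUN family, and each symbol matched 1 row. All 10 reached 0.5 CPM (counts scaled to the total of the library) in at least 1 library and were tested, Egr3 only through the libraries with cholesterol crystals (CC), where it was high. CC raised Egr1 3.02-fold and 5.12-fold and Fosl1 5.15-fold and 6.06-fold in hepatic macrophages labelled as from normal and steatotic livers, in that order. Egr2, Egr3 and Fosb were also higher with CC in every library of either label, and of their calls only that of Egr3 with the label steatotic held when single libraries were left out. Fos itself, the founding member of its family, and Jund did not pass the test on CC under either label.

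The RNA was from primary hepatic macrophages, isolated from the non-parenchymal cells of mouse liver with an F4/80 antibody and magnetic beads and kept on collagen-coated plates. Normal livers were those of wild-type (WT) mice on a standard diet. Steatotic livers were those of MC4R-KO mice, which lack the melanocortin 4 receptor, on a Western diet for several weeks, and the strain background of all mice was C57BL/6J. Genotype and diet changed together between the livers, so their parts in any difference cannot be told apart. Cells of each kind received CC at 500 µg/ml or vehicle (Veh) for 24 h, with 2 libraries in each of the 4 groups and 8 in all. The study's methods give a starting age for its long feeding experiments, but the sources used here tie no age and no number of mice to these cultures and do not say whether the 2 libraries of a group came from separate mice, so the p-values measure the spread between these libraries, which may be technical. The question of this experiment was how the response to CC differs between macrophages from normal and steatotic livers, and Egr1 was 1 of the factors that the study followed.

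EGR proteins are zinc-finger transcription factors that bind GC-rich sites and are among the first genes that cells switch on after growth factors, cytokines or stress, through MAP kinases and the serum response factor (SRF). AP-1 is a dimer of a JUN protein with another JUN, a FOS or an ATF protein, and it binds the sequence TGANTCA. JUN proteins can pair with each other, whereas FOS proteins need a JUN partner. In macrophages these factors act on genes of cytokines, matrix proteases and growth factors. Transcripts of this class are often short-lived, and the samples were taken at 24 h only, so earlier peaks were not measured.

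The start regions of members are shown because EGR and AP-1 genes are known to be controlled partly by their own products. RefSeq promoter windows of GRCm38.p6, from 250 bases before to 50 bases after a start, were used for 7 of 10 members (the start of Egr1 was left out by choice and was not searched), and for 5 of them (Egr2, Fos, Fosb, Jun and Junb) the start of a window lay within 50 bases of the start of the principal GENCODE transcript. The distance was 0 bases for Egr2, Fos and Jun, 6 for Fosb and 30 for Junb. The start used for Egr2 lies inside the gene as annotated, since other transcripts of Egr2 begin further upstream. Below are the 150 bases before the start, 5′ to 3′, for Egr2, the EGR member with such a window, for Fos, and for the FOS and JUN members whose window held a motif. Capitals mark a motif.
Egr2, chr10:67537719-67537868, plus strand: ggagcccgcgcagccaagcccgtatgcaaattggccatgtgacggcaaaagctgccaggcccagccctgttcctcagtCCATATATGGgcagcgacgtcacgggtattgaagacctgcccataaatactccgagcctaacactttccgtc
Fosb, chr7:19310046-19310195, minus strand: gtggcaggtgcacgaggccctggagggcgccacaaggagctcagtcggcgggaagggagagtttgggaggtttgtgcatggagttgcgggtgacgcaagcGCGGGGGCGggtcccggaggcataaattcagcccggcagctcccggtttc
Jun, chr4:95052223-95052372, minus strand: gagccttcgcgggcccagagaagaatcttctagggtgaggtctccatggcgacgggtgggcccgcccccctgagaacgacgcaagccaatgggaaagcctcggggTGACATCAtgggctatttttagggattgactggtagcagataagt
Fos, chr12:85473740-85473889, plus strand: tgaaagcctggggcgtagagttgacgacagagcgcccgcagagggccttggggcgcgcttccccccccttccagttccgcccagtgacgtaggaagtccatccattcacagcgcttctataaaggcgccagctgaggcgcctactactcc

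Both strands were searched for an AP-1 site (TGANTCA), a CRE-like site (TGACNTCA), an EGR site (GCGNGGGCG) and the CArG box, the sequence bound by SRF. The capitals in the Egr2 sequence are a CArG box from base -72 to base -63, counted from -1 next to the start. Those in the Fosb sequence are an EGR site from -50 to -42, and those in the Jun sequence a CRE-like site from -45 to -38. No match overlapped another. Of 32851 mouse windows of the same length, 7.81% held the AP-1 site, 8.83% the CRE-like site, 5.55% the EGR site and 1.63% the CArG box. The Fos and Junb windows held none of the 4, which says only that these letters are not there. These matches describe the reference sequence, and binding was not measured.

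The libraries held between 58668655 and 74529462 counts, and 3 counts correspond to between 0.0403 and 0.0511 CPM. Since 1 fragment may stand for about 4 counts, 3 counts may be less than 1 fragment. Mc4r, which the knockout targets, had 0 counts in the 4 libraries labelled normal and 28, 22, 53 and 72 counts in those labelled steatotic. Reads of the targeted gene were thus seen only with the label of the knockout. A targeted allele can still be transcribed, and the genotypes were not tested. Spp1, known from lipid-associated macrophages of steatotic livers, ran the way the labels say, with 58.1 and 51.3 CPM in steatotic Veh and 9.70 and 12.6 CPM in normal Veh. An exchange of labels was not tested, and every direction between the livers below rests on the labels. Macrophage markers were abundant in all libraries, with a sum over 12 genes of 10609 to 18307 CPM. This sum was 17619 to 18307 CPM in normal Veh, 13000 to 13207 CPM in normal CC, 16249 to 16872 CPM in steatotic Veh and 10609 to 11806 CPM in steatotic CC, so it was lower with CC under both labels. On CC 0 of the 12 rose and 9 fell with the label normal, where 6.27% of tested genes rose and 5.54% fell. With the label steatotic 2 rose and 8 fell, against 12% and 10.9%. With Veh 7 were higher and 4 lower with the label steatotic, against 16.4% and 14.3%. Markers of other cells were far below it and differed between the groups. The 10 hepatocyte markers summed to 49.5 to 59.5 CPM with the label normal and 1.78 to 2.47 CPM with the label steatotic, where Cps1 was at 0. The 8 T and NK cell markers summed to 0.801 to 1.44 CPM and 11.5 to 15.7 CPM, in that order. The 8 sinusoidal endothelial markers summed to 141 to 173 CPM with the label normal and 215 to 244 CPM with the label steatotic, and the 5 B cell markers to 1.20 to 3.02 CPM in all libraries. The endothelial markers went both ways: with Veh 4 of the 7 tested were higher and 2 lower with the label steatotic, against 16.4% and 14.3% of all tested genes. The 8 stellate cell and fibroblast markers summed to 4.41 to 4.59, 7.50 to 9.52, 19.2 to 22.4 and 110 to 137 CPM in normal Veh, normal CC, steatotic Veh and steatotic CC. Of these 2 were tested, Dcn rose with CC under both labels, and Lrat was at 0 with the label steatotic. Acta2, the other tested gene, was not called on CC. With the scaling used for single genes, which the sums lack, Dcn stood at 20.9 and 17.5 CPM in steatotic Veh. It stood at 138 and 110 CPM in steatotic CC, so the sums labelled steatotic were mostly this 1 gene. The 6 neutrophil markers, of which Ly6g was at 0 throughout and only S100a8 was tested, summed to 9.08 to 9.94, 14.4 to 15.04, 4.66 to 5.50 and 18.6 to 19.5 CPM in the same order. The part of these cells in the results below was not tested, and in bulk RNA fewer cells of a type and less RNA per cell cannot be told apart.

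Of the EGR members, Egr1, a zinc-finger factor of the first minutes of a stimulus, rose with CC under both labels and by more with the label steatotic. It is listed as ENSMUSG00000038418.7, on chromosome 18 of GRCm38 (mm10) from 34859823 to 34864984. With Veh it stood at 21.4 and 19.9 CPM in the 2 libraries labelled normal and at 12.1 and 11.2 CPM in the 2 labelled steatotic. With CC it stood at 62.5 and 62.0 CPM and at 59.1 and 59.9 CPM. All CC libraries were above all Veh libraries, and both steatotic Veh libraries were below both normal Veh libraries. In log2 terms the rise was 1.59 ± 0.0677 (SE) with the label normal, 3.02-fold, with an adjusted p of 2.9e-05. With the label steatotic it was 2.36 ± 0.0698, 5.12-fold, with an adjusted p of 2.0e-06. Adjusted p-values are from edgeR's quasi-likelihood test with Benjamini-Hochberg adjustment over the 15202 tested genes.

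The difference between these responses of Egr1 was 0.76 ± 0.0942 on the log2 scale (95% interval 0.54 to 0.98, adjusted p = 0.00659). The levels reached with CC, 62.3 ± 0.336 CPM (SD, n = 2) and 59.5 ± 0.586 CPM, differed by -0.07 on the log2 scale (95% interval -0.22 to 0.09, adjusted p = 0.516 by edgeR). The levels with Veh differed by -0.83 ± 0.0676 (adjusted p = 8.2e-05). The larger rise in the libraries labelled steatotic thus started from a lower level with Veh, and no higher level of Egr1 with CC was measured in them.

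Egr2, a factor that macrophages also use in their differentiation, is listed as ENSMUSG00000037868.15 on chromosome 10 from 67535475 to 67542188, a span that begins with longer transcripts, so that the sequence printed above with the CArG box, before the start of the principal transcript, lies within it. Its libraries stood at 33.0 and 12.1 CPM in normal Veh and at 64.6 and 81.3 CPM in normal CC. They stood at 8.51 and 8.11 CPM in steatotic Veh and at 58.8 and 57.0 CPM in steatotic CC. No CC library overlapped with a Veh library, but the normal Veh libraries were far apart. The rise with the label steatotic was 2.80 ± 0.507 on the log2 scale (adjusted p = 0.0191), and with the label normal the value was 1.69 ± 0.482 (adjusted p = 0.107), which did not pass with edgeR but did with DESeq2 (adjusted p = 0.00511). Without normal Veh replicate 1 this value was 2.59 with an adjusted p of 0.000612, and without replicate 2 it was 1.15 with an adjusted p of 0.00573. The call with the label steatotic was lost when any of its own 4 libraries was left out, with adjusted p-values of 0.0693 to 0.120. The difference between the responses was 1.11 (95% interval -0.65 to 2.87, adjusted p = 0.578), and without normal Veh replicate 2 it was 1.65 with an adjusted p of 0.0101.

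Egr3, a relative first known from lymphocytes and neurons, is listed as ENSMUSG00000033730.4 on chromosome 14 from 70077203 to 70082614 and was the rarest EGR member. It had 24 counts in each normal Veh library, 0.332 and 0.354 CPM, and stood at 1.67 and 1.13 CPM in normal CC. In steatotic Veh it stood at 0.251 and 0.451 CPM and in steatotic CC at 3.16 and 2.36 CPM. The CC libraries were above the Veh libraries under both labels, and the normal and steatotic Veh libraries overlapped. The rise was 2.02 ± 0.382 on the log2 scale with the label normal (adjusted p = 0.0139) and 2.96 ± 0.384 with the label steatotic (adjusted p = 0.00117). Egr3 had passed the filter on low counts only through its CC libraries, and with no filter both calls were also made. The first call was lost without either normal Veh library or without normal CC replicate 1, with adjusted p-values of 0.0638 to 0.0801. The difference between the responses was 0.94 (95% interval -0.30 to 2.18, adjusted p = 0.502), and with CC the level was 0.98 higher with the label steatotic on the log2 scale without passing the test (adjusted p = 0.0746).

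**Figure D1:**
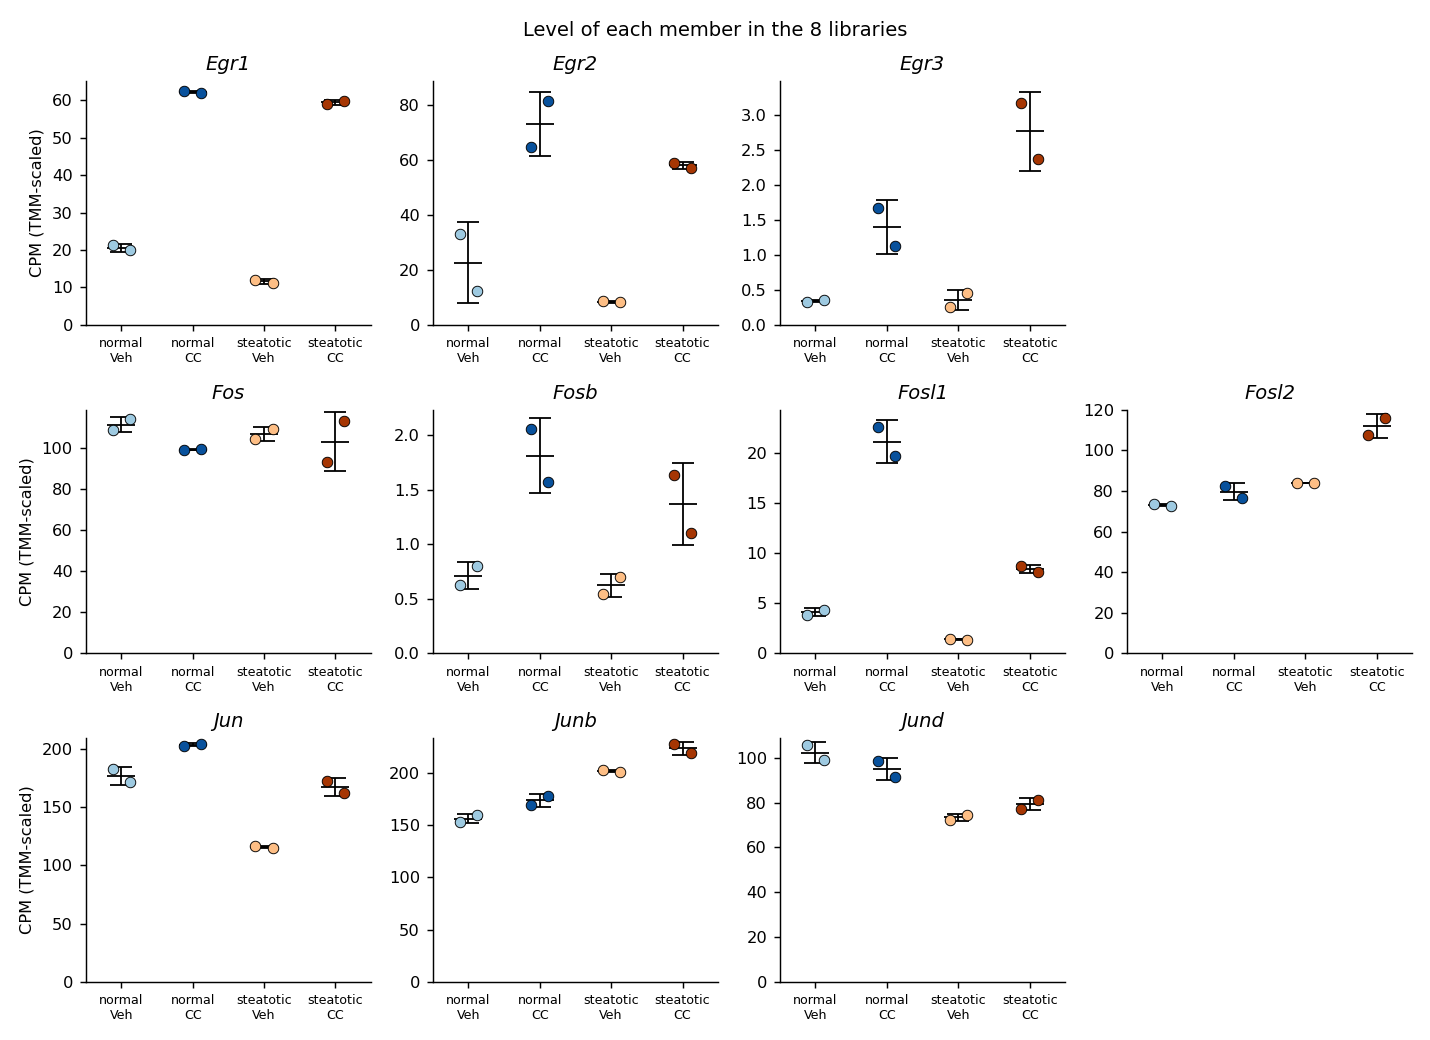
CPM scaled by TMM factors of each of the 10 members (y axis, linear from 0) in the 4 groups (x axis). Points are the 2 libraries, bars the mean and whiskers 1 SD. Egr1, Egr2, Egr3, Fosb and Fosl1 are above Veh with CC under both labels, with Egr2 spread from 12.1 to 33.0 CPM in normal Veh, while Fos stays between 93.0 and 114 CPM in all 8 libraries.

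Of the FOS members, Fosl1 (FRA-1), a FOS protein without the strong activation domain of Fos, rose severalfold with CC under both labels. It is listed as ENSMUSG00000024912.6 on chromosome 19 from 5447547 to 5455946. It stood at 3.86 and 4.38 CPM in normal Veh and at 22.7 and 19.7 CPM in normal CC. In steatotic Veh it stood at 1.40 and 1.37 CPM and in steatotic CC at 8.70 and 8.11 CPM. The 4 groups did not overlap, and the order was normal CC, steatotic CC, normal Veh, steatotic Veh. The rise was 2.36 ± 0.128 on the log2 scale, 5.15-fold, with the label normal (adjusted p = 5.7e-05) and 2.60 ± 0.134, 6.06-fold, with the label steatotic (adjusted p = 1.3e-05). These rises differed by 0.24 (95% interval -0.18 to 0.65, adjusted p = 0.641). Fosl1 was lower with the label steatotic both with Veh, by -1.57 ± 0.132 (adjusted p = 9.4e-05), and with CC, by -1.33 ± 0.123 (adjusted p = 0.000177). Exons of Fosl1 share 1163 bases with Ccdc85b on the other strand, and the strand setting of the counting is not given in the sources used here.

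Fosb, a close relative of Fos, is listed as ENSMUSG00000003545.3 on chromosome 7 from 19302696 to 19310051, and the sequence printed above holds its EGR site. It was rare, at 0.622 and 0.796 CPM in normal Veh and 2.05 and 1.57 CPM in normal CC. In steatotic Veh it stood at 0.546 and 0.698 CPM and in steatotic CC at 1.63 and 1.11 CPM. The CC libraries were above the Veh libraries under each label, and the 2 labels overlapped with Veh and with CC. The rise was 1.35 ± 0.331 on the log2 scale with the label normal (adjusted p = 0.0389) and 1.13 ± 0.333 with the label steatotic (adjusted p = 0.0462). Both calls were near the threshold. The second was lost with counts divided by 4 (adjusted p = 0.0549 by edgeR), which allows for about 4 counts per fragment. The first was lost without any of the 4 libraries labelled normal or either steatotic Veh library (adjusted p = 0.0530 to 0.179), and the second without any library but steatotic CC replicate 2 (adjusted p = 0.0572 to 0.228) and with DESeq2 (adjusted p = 0.0612).

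Fosl2 (FRA-2), a FOS protein known from bone and fibrosis, is listed as ENSMUSG00000029135.10 on chromosome 5 from 32135801 to 32157842. It stood at 73.5 and 72.6 CPM in normal Veh, at 82.7 and 76.6 CPM in normal CC, at 84.1 and 84.0 CPM in steatotic Veh and at 108 and 116 CPM in steatotic CC. Steatotic CC was above every other library. Fosl2 rose by 0.41 ± 0.0559 on the log2 scale with CC in the libraries labelled steatotic (adjusted p = 0.00144), and with the label normal the value was 0.12 (95% interval -0.01 to 0.26, adjusted p = 0.217). The difference between the responses was 0.29 (95% interval 0.10 to 0.47) and did not pass after adjustment (adjusted p = 0.122). With Veh it was higher with the label steatotic by 0.20 ± 0.0560 (adjusted p = 0.0289), a call that was lost without any of the 4 Veh libraries (adjusted p = 0.0857 to 0.103), and with CC by 0.49 ± 0.0560 (adjusted p = 0.000537).

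Fos, the classic serum-induced partner of Jun, is listed as ENSMUSG00000021250.13 on chromosome 12 from 85473890 to 85477273, and its start region is the last of those above. It stood at 109 and 114 CPM in normal Veh and at 99.1 and 99.3 CPM in normal CC. In steatotic Veh it stood at 104 and 109 CPM and in steatotic CC at 93.0 and 113 CPM. The steatotic CC libraries lay on both sides of the steatotic Veh libraries. No contrast called Fos. The change on CC was -0.16 on the log2 scale with the label normal (95% interval -0.37 to 0.04, adjusted p = 0.289) and -0.05 with the label steatotic (95% interval -0.25 to 0.15, adjusted p = 0.751). These intervals leave out rises of the size seen for Fosl1 at this time.

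Of the JUN members, Jun, the DNA-binding partner in most AP-1 dimers, differed most between the groups. It is a gene of 1 exon, listed as ENSMUSG00000052684.4 on chromosome 4 from 95049034 to 95052222, and its CRE-like site is shown above. It stood at 183 and 172 CPM in normal Veh and at 203 and 205 CPM in normal CC. In steatotic Veh it stood at 116 and 115 CPM and in steatotic CC at 173 and 162 CPM. Steatotic Veh was below all other libraries, and steatotic CC overlapped with normal Veh. Jun rose with CC by 0.20 ± 0.0485 on the log2 scale with the label normal (adjusted p = 0.0362) and by 0.53 ± 0.0487 with the label steatotic (adjusted p = 0.000198). The difference of 0.33 ± 0.0686 was just past the threshold (adjusted p = 0.0498). It did not pass with DESeq2 size factors (adjusted p = 0.0562) or with the replicate block (adjusted p = 0.0577). It was lost without any library but steatotic CC replicate 2 (adjusted p = 0.0612 to 0.150), and the call with the label normal was lost without normal Veh replicate 2, either normal CC or either steatotic Veh library (adjusted p = 0.0611 to 0.149). Jun was lower with the label steatotic with Veh, by -0.61 ± 0.0487 (adjusted p = 7.1e-05), and with CC, by -0.28 ± 0.0485 (adjusted p = 0.00407). Junos, on the other strand, shares 232 exon bases with it.

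Junb, which can act against Jun at some target genes, is listed as ENSMUSG00000052837.7 on chromosome 8 from 84974484 to 84978718. It stood at 153 and 159 CPM in normal Veh, 170 and 178 CPM in normal CC, 203 and 201 CPM in steatotic Veh and 228 and 219 CPM in steatotic CC. All 4 libraries labelled steatotic were above all 4 labelled normal. It was higher with the label steatotic by 0.37 ± 0.0435 on the log2 scale with Veh (adjusted p = 0.000542) and by 0.36 ± 0.0435 with CC (adjusted p = 0.000699). On CC its changes were small, 0.15 ± 0.0435 with the label normal (adjusted p = 0.0653) and 0.15 ± 0.0434 with the label steatotic (adjusted p = 0.0469). The latter call was lost whichever library was left out (adjusted p = 0.0548 to 0.192) and with DESeq2. The difference between the changes was -0.01 (95% interval -0.15 to 0.14, adjusted p = 0.985). Prdx2 shares 173 exon bases with Junb on the other strand.

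Jund, the JUN member that resting cells usually express, is a gene of 1 exon, listed as ENSMUSG00000071076.6 on chromosome 8 from 70698949 to 70700616. It stood at 106 and 98.9 CPM in normal Veh, 98.4 and 91.4 CPM in normal CC, 72.3 and 74.6 CPM in steatotic Veh and 77.3 and 81.1 CPM in steatotic CC. All libraries labelled steatotic were below all labelled normal. On the log2 scale the difference was -0.48 ± 0.0577 with Veh (adjusted p = 0.000611) and -0.26 ± 0.0577 with CC (adjusted p = 0.0124), and the second was lost without normal CC replicate 1 (adjusted p = 0.0786) or steatotic CC replicate 1 (adjusted p = 0.0679). The change on CC was -0.11 with the label normal (95% interval -0.24 to 0.03) and 0.11 with the label steatotic (95% interval -0.03 to 0.24), and neither passed (adjusted p = 0.303 and 0.238). Gm11175 on the other strand shares 877 exon bases with Jund.

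Set beside all tested genes, the members called on CC were all higher. With the label normal 5 of 10 members rose and 0 fell, where 6.27% of the 15202 tested genes rose and 5.54% fell. With the label steatotic 8 of 10 rose and 0 fell, against 12% and 10.9% of all tested genes. The median log2 fold change of the members was 0.78 and 0.83 in these contrasts, and that of all tested genes was -0.00059 and 0.0. The 3 EGR members, Egr3 with the limit on its filter given above, had medians of 1.69 and 2.80, the 4 FOS members of 0.74 and 0.77 and the 3 JUN members of 0.15 and 0.15. The rise of 8 members included Junb, Fosb and Egr2, the calls that did not hold when single libraries were left out. Egr1, Egr3, Fosl1, Fosl2 and Jun with the label steatotic, and Egr1 and Fosl1 with the label normal, were called under every alternative run.

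Between the livers the members moved both ways. With Veh, Junb and Fosl2 were higher and Egr1, Fosl1, Jun and Jund lower with the label steatotic, 2 and 4 of 10 members, where 16.4% of tested genes were higher and 14.3% lower. Egr2 with Veh had a value of -1.44 on the log2 scale (95% interval -2.72 to -0.16, adjusted p = 0.0917), and was called without normal Veh replicate 1 (-0.54, adjusted p = 0.0316) or replicate 2 (-1.99, adjusted p = 0.000171). With CC, Junb and Fosl2 were higher and Fosl1, Jun and Jund lower, 2 and 3 of 10, where 15.9% of tested genes were higher and 12.9% lower. The members' shares of calls between the livers are read against a background in which many genes differed. The test of the difference between the CC responses called 2 of 10 members, Egr1 and Jun, both with the larger response in the libraries labelled steatotic, where 1.95% of tested genes had a larger value and 1.27% a smaller one. The hepatocyte, T and NK cell and endothelial marker sums given above also differed between the labels, and their part was not tested.

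**Figure D2:**
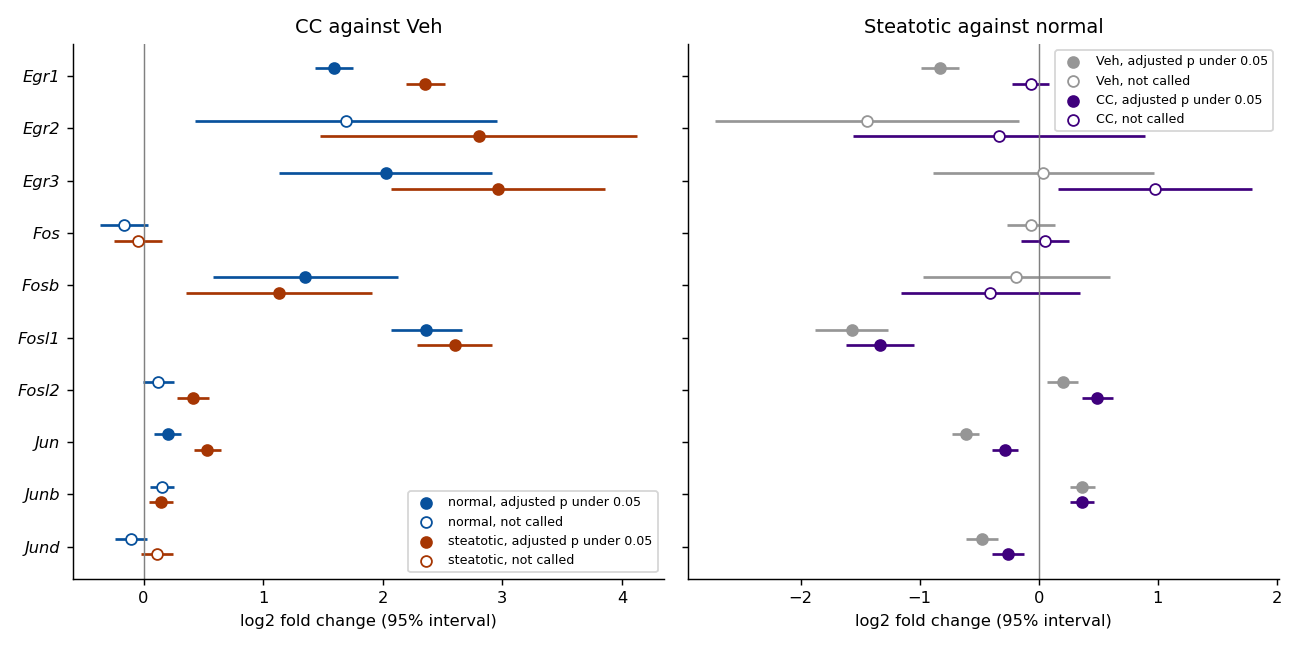
Log2 fold changes (x axis) of the 10 members (y axis) for CC against Veh under each label, left, and for steatotic against normal with Veh and with CC, right. Bars are 95% intervals from edgeR, and filled points have an adjusted p-value under 0.05. On the left the points of Egr1, Egr2, Egr3, Fosb and Fosl1 lie above 1 under both labels, and on the right Egr1 moves from -0.83 with Veh to -0.07 with CC.

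Levels per kb of exon length allow members to be compared with each other. Among FOS members, Fos made up 82.4% to 83.2% of the summed CPM per kb in the 4 Veh libraries under both labels. With CC its share was 67.8% to 70.3% with the label normal and 71.6% to 74.8% with the label steatotic. Fosl1 went from 3.40% to 3.70% in normal Veh to 16.1% to 18.0% in normal CC, and from 1.21% to 1.28% in steatotic Veh to 6.21% to 7.75% in steatotic CC. Fosl2 held 18.7% to 20.2% in steatotic CC and 12.9% to 16.1% in all other libraries, and Fosb stayed under 1% throughout. The share of Fosl1 among FOS transcripts was thus higher with CC under both labels, and that of Fosl2 in the libraries labelled steatotic. The share of Fos was lower with CC, although no contrast called a change in its own level.

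Among JUN members the composition differed mainly between the labels. Junb held 35.6% to 39.4% of the summed CPM per kb with the label normal and 48.9% to 52.4% with the label steatotic. Jun held 29.5% to 30.6% in normal Veh, 32.4% to 32.7% in normal CC, 21.5% to 21.8% in steatotic Veh and 26.1% to 27.2% in steatotic CC. Jund made up the rest, with 27.9% to 33.8% under the label normal and 23.2% to 26.5% under the label steatotic. Junb was the JUN member of highest level per kb in every library. Among EGR members, Egr1 and Egr2 together made up more than 97% in every library. Egr2 held 66.7% and 44.1% in the 2 normal Veh libraries, 57.1% and 62.9% in normal CC, 47.7% and 47.9% in steatotic Veh and 55.5% and 54.7% in steatotic CC, and the spread in normal Veh was wider than the step between Veh and CC. These shares are descriptions and were not tested.

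**Figure D3:**
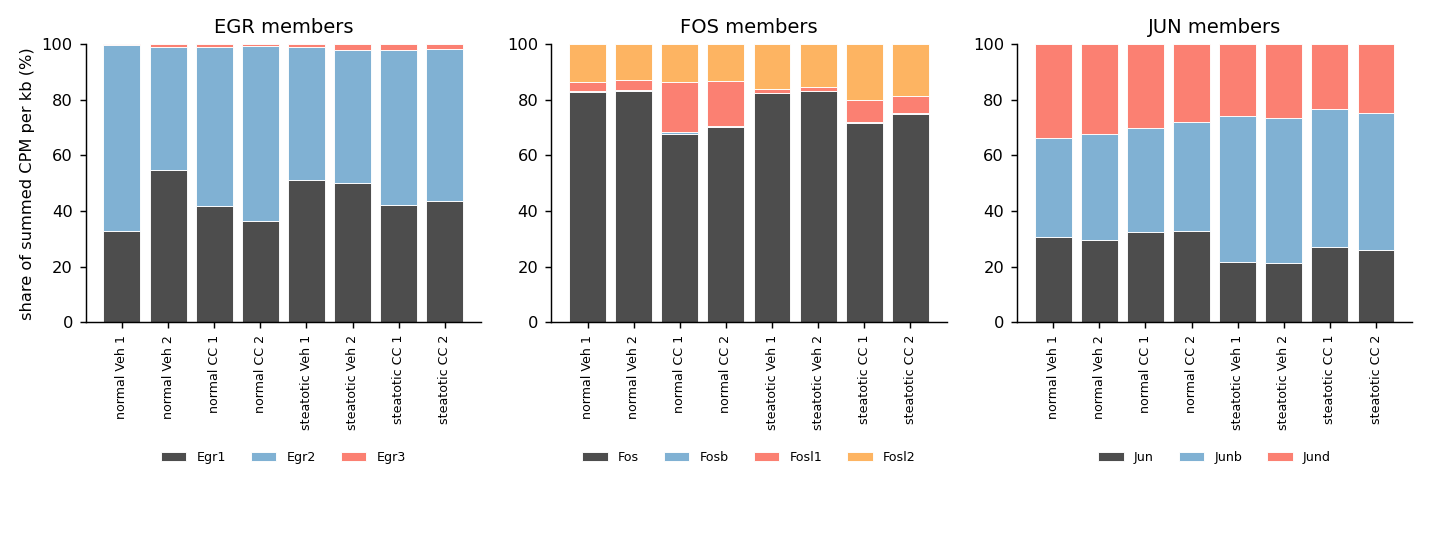
Share of each member in the summed CPM per kb of its family (y axis, percent) in each of the 8 libraries (x axis), for the EGR, FOS and JUN members. The Fosl1 part of the FOS bars is widest in normal CC, 16.1% to 18.0%, and the Junb part of the JUN bars is wider in the libraries labelled steatotic, 48.9% to 52.4%.

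The genes whose pattern over the 8 libraries was most like that of Egr1 were Ets2, an ETS transcription factor, Tm4sf19, Procr, the endothelial protein C receptor, and Eepd1. Their Pearson correlations of log2 CPM with Egr1 were 0.999, 0.999, 0.997 and 0.997. Ets2, for example, stood at 49.1 and 48.7 CPM in normal Veh, 91.6 and 91.1 in normal CC, 36.6 and 36.4 in steatotic Veh and 87.0 and 92.0 in steatotic CC. Like Egr1 it was lowest in steatotic Veh and at about the same level in both CC groups. For Egr2 the most alike were Pgam1, Acbd3, Swt1 and Fxr2, with correlations of 0.980 to 0.993, and for Egr3 Pgs1, Sh2b2, Ahr and Cd9, with 0.982 to 0.991. These values describe 8 libraries in 4 groups, which share depth and treatment, and they were chosen as the highest of all tested genes with a mean of at least 5 CPM.

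Genes that work with AP-1 and EGR proteins moved in both directions on CC. Of 14 AP-1 partners and related bZIP factors, 4 rose and 2 fell with the label normal and the counts were the same with the label steatotic. Over all tested genes 6.27% rose and 5.54% fell with the label normal and 12% and 10.9% with the label steatotic, so the 2 that fell with the label steatotic are near the background. Maff, a small MAF protein, rose from 7.01 and 7.30 CPM to 16.3 and 15.4 CPM with the label normal, and from 3.19 and 3.64 CPM to 11.96 and 12.9 CPM with the label steatotic. Atf3, a stress-induced bZIP factor that pairs with Jun, rose by 0.80 and 1.02 on the log2 scale under the labels normal and steatotic, and Mafg by 0.41 and 0.45. Maf, a factor of resident macrophages, fell by 0.49 and by 0.74, and the difference of -0.25 passed (adjusted p = 0.0409). Of the EGR list, Egr4 and Wt1 were below the filter and 2 of 4 genes were tested. Nab2, a corepressor that EGR proteins induce and bind, fell with CC with the label steatotic, from 18.3 and 20.8 CPM to 10.7 and 10.2 CPM (log2 change -0.91 ± 0.0959, adjusted p = 0.000416). With the label normal Nab2 stood at 19.6 and 20.2 CPM with Veh and at 16.03 and 17.6 CPM with CC, which did not pass. The difference between its responses, -0.67 ± 0.135, was opposite in sign to that of Egr1 (adjusted p = 0.0452). Nab1, the other corepressor, rose by 0.23 with the label steatotic.

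For genes that act upstream of the members, most counts were near the background given for all tested genes, 6.27% up and 5.54% down with the label normal and 12% and 10.9% with the label steatotic. Of the 7 SRF and TCF factors and their relatives, 1 rose and 1 fell with the label normal, and 2 rose and 1 fell with the label steatotic. Srf rose by 0.35 and 0.43 on the log2 scale under the labels normal and steatotic. Elk3, an ETS factor of the TCF group, fell by 0.24 with the label normal, and with the label steatotic Mrtfb rose by 0.47 and Mrtfa fell by 0.31, both of them partners of SRF. Of 21 genes of MAP kinase cascades, 1 rose and 1 fell with the label normal, and 3 rose and 4 fell with the label steatotic. Map3k5 (ASK1) fell by 0.64 and by 0.45, and Map2k1 (MEK1) rose by 0.18 and 0.23 under the labels normal and steatotic. Map2k6, a p38 activator, rose from 1.17 and 0.957 CPM to 3.24 and 4.30 CPM with the label steatotic (log2 change 1.83 ± 0.237, adjusted p = 0.00116), while Map3k8 fell by 0.52 and Map3k1 by 0.26. The difference between the responses was 2.18 for Map2k6 (adjusted p = 0.0146) and -0.50 for Map3k8 (adjusted p = 0.0258). MAP kinases act by phosphorylation, which was not measured.

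Of 20 other immediate-early genes, 9 rose and 0 fell with CC with the label normal, and 10 rose and 1 fell with the label steatotic, against 6.27% and 5.54%, and 12% and 10.9%, of all tested genes. Their median log2 fold changes were 0.41 and 0.29. These were below the medians of the EGR and FOS members and above those of the JUN members, 0.15 and 0.15. Sgk1, a kinase induced by serum and glucocorticoids, rose by 1.06 and 1.54, Gadd45b, a stress gene, by 1.05 and 1.78, and Nr4a1, an orphan nuclear receptor, by 0.65 and 1.06. Klf4, a zinc-finger factor of macrophage activation, rose by 0.58 and 1.19, and the difference did not pass (adjusted p = 0.0824). Arc rose by 0.87 with the label normal, and its value with the label steatotic was 0.49 (adjusted p = 0.146). The test of the difference called 3 of these 20 genes, all with the larger response in the libraries labelled steatotic: Gadd45b with 0.73, Ier3 with 0.65 and Sgk1 with 0.49. Over all tested genes 1.95% had a called larger value. Gadd45b stood at 51.3 and 51.4 CPM in normal Veh, 109 and 104 in normal CC, 32.2 and 31.0 in steatotic Veh and 114 and 103 in steatotic CC. It thus shared with Egr1 a lower Veh level with the label steatotic and CC levels in the same range under both labels.

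Of 15 genes known as targets of EGR1 in some cell type, 9 rose and 1 fell with CC with the label normal, and 11 rose and 1 fell with the label steatotic, with medians of 0.45 and 0.57 on the log2 scale. Over all tested genes 6.27% rose and 5.54% fell, and 12% and 10.9%, in the same order. The list holds Spp1, Vegfa, Pdgfb and Tnf, which the study named, and it is not independent evidence of a direction. Vegfa, an angiogenic growth factor, rose by 1.51 and 1.74, Abca1, the cholesterol efflux pump, by 1.22 and 1.16, and Ptges, a prostaglandin E synthase, by 1.19 and 2.59. Spp1 (osteopontin) rose from 58.1 and 51.3 CPM to 347 and 322 CPM with the label steatotic (log2 change 2.61 ± 0.128), and from 9.70 and 12.6 CPM to 19.8 and 19.9 CPM with the label normal (log2 change 0.84 ± 0.127, adjusted p = 0.00884). The differences between the responses were 1.78 for Spp1 (adjusted p = 0.00573) and 1.40 for Ptges (adjusted p = 0.00219), and 5 of the 15 genes had a called larger and 1, Nab2, a called smaller value with the label steatotic, against 1.95% and 1.27% of all tested genes.

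Of 17 genes known as AP-1 targets, 9 rose and 1 fell with the label normal and 11 rose and 1 fell with the label steatotic, with medians of 0.68 and 1.05, where 6.27% and 12% of all tested genes rose and 5.54% and 10.9% fell. Mmp12, the gene of macrophage elastase, had the largest rise of the list under both labels. It stood at 1236 and 1258 CPM in normal Veh, 3959 and 3754 CPM in normal CC, 249 and 231 CPM in steatotic Veh and 2632 and 2200 CPM in steatotic CC. It thus rose by 1.63 and 3.33 on the log2 scale, with a difference of 1.70 (adjusted p = 0.0024), again from a lower Veh level with the label steatotic. Vegfa, also on this list, rose by 1.51 and 1.74, the matrix proteases Mmp13 by 1.28 and 1.80 and Mmp9 by 1.25 and 2.17, and Il6 by 2.24 with the label steatotic, where it was at 6.05 and 5.07 CPM with CC. The test of the difference called 6 of 17 genes, all with the larger value in the libraries labelled steatotic, as did 1.95% of all tested genes. Among them were Il1b with 0.95, Plaur, the urokinase receptor, with 0.68 and Ctsk, the protease cathepsin K, with 0.57. Il1b changed in opposite directions, by -0.47 with the label normal and by 0.49 with the label steatotic. Binding of EGR or AP-1 proteins to any of these genes was not measured.

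**Figure D4:**
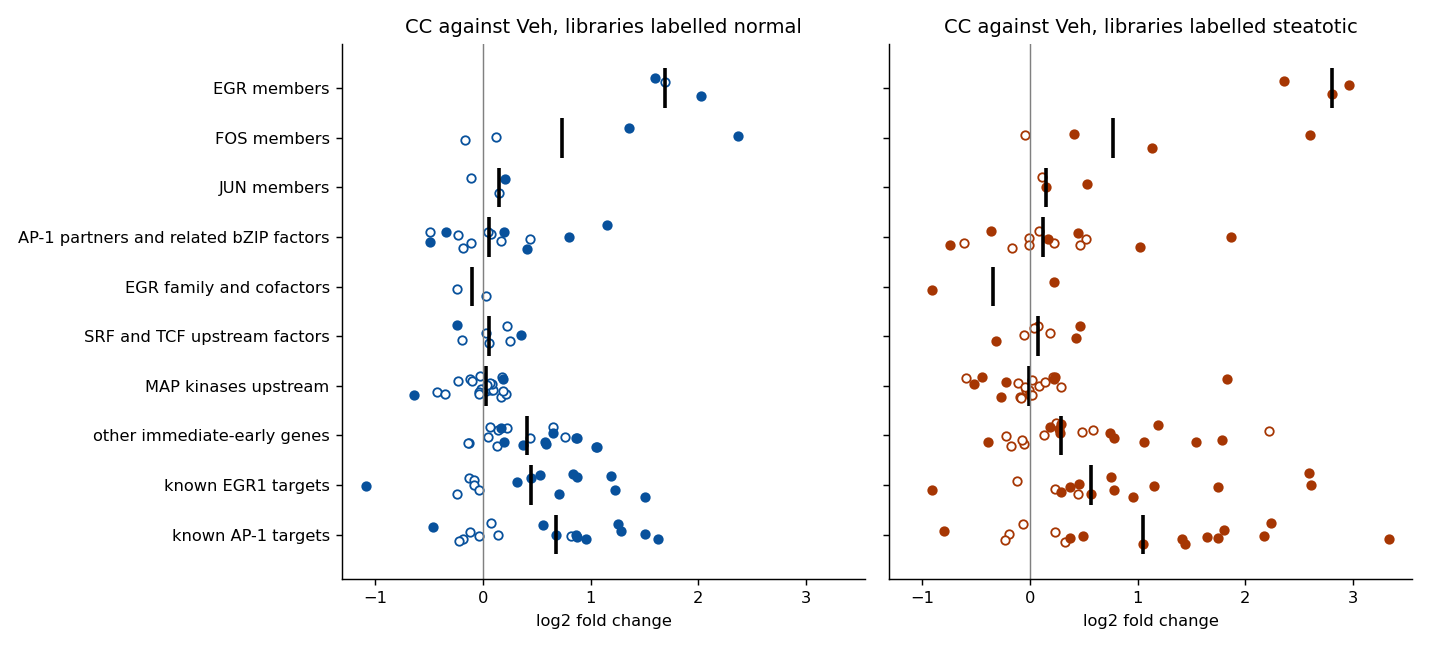
Log2 fold change on CC (x axis) of each tested gene of the 10 lists (y axis), in libraries labelled normal, left, and steatotic, right. Filled points have an adjusted p-value under 0.05 by edgeR, and black bars are medians. The EGR members have the highest medians, 1.69 and 2.80, and the MAP kinase list lies around 0 with medians of 0.03 and -0.0079.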

How the data were processed

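Poly(A) RNA of hepatic macrophages was sequenced in 8 libraries as 150 bp paired-end reads with a directional kit. According to the study's methods, reads were trimmed with fastp, aligned to mm10 with HISAT2 and quantified with StringTie, whose versions are not given in the sources used here. The authors deposited estimated counts (expected counts) per gene, not normalized, with 1 column per library. All values were whole, so none was rounded. Of the values from 1 to 20, 35.0% to 36.5% per library were multiples of 4, against 23.9% to 27.0% of larger values, so 1 fragment may stand for about 4 counts. The total counts, 58668655 to 74529462, then overstate the depth. The intervals printed are from the edgeR fit and include the spread between libraries.

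Groups were taken from the labels. Counts were scaled by TMM (factors 0.981 to 1.03), and genes were kept for testing if 1 or more libraries held 0.5 CPM, 15202 of the 28711 with any count. Tests were run with edgeR 4.0.16 in R 4.3.3 (glmQLFit with robust estimation, glmQLFTest, 4 group means over all 8 libraries, default prior count). Within a contrast, Benjamini-Hochberg adjustment covered all tested genes, and genes with an adjusted p-value under 0.05 were called. SEs are the log2 fold change over the root of F. Exon lengths and positions are from GENCODE M21 (GRCm38), and start regions from RefSeq (GRCm38.p6), without those of chromosome 18. The fit was tested on simulated counts with known changes. These were drawn with the spread of the fit itself and copied neither steps of about 4 counts nor a library that stands apart.

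The members and lists were chosen with earlier results of these data known. Named were the 10 members, up to 4 called genes of largest change per list and CC contrast, Mc4r, and the 4 genes most correlated (log2 CPM, prior count 4) with Egr1 and with the 2 members that rose most with the label steatotic. Of the genes this rule names, 1 is not reported here. Tnf and Pdgfb are named only as list members the study mentions, and Dcn, Acta2, S100a8, Cps1, Lrat and Ly6g as markers. Replicate numbers come from the labels, which do not say what they share, and are not used as a block. Alternatives were DESeq2 1.42.0, its size factors, no scaling factors beyond library size, 2 other filters for low genes, counts divided by 4, a prior count of 4, an adjusted p under 0.1, a replicate block, only the 4 libraries of a comparison, and each library left out in turn, where the lone library of a group is assumed to vary like the other groups. Figures were drawn with matplotlib 3.10.9.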

Additional observations from a re-analysis of the deposited data

Results flagged for a closer look

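The response of Egr1 to CC differed between the livers by the test of the difference itself. It was larger by 0.76 on the log2 scale in the libraries labelled steatotic (2.36 against 1.59, adjusted p = 0.00659 by edgeR), and the call held under every alternative run.

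The response of Jun to CC differed in the same way, by 0.33 on the log2 scale (0.53 against 0.20, adjusted p = 0.0498 by edgeR). This call was near the threshold and was lost without any library but steatotic CC replicate 2 (adjusted p = 0.0612 to 0.150). The call was also lost with DESeq2 size factors (adjusted p = 0.0562 by edgeR) and with the replicate block (adjusted p = 0.0577). Egr1 and Jun both stood lower with Veh in the libraries labelled steatotic. With 2 libraries in each group, no library was compared with the spread of the rest of its group.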

How the results depend on the processing

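The number of members called with Veh between the livers (6) and with CC between the livers (5) stayed within 1.5 times of these counts under every alternative run. On CC with the label normal, 5 members were called, and 2 to 5 when 1 library was left out, with the lowest count without normal CC replicate 1. With the label steatotic 8 were called, 5 with no filter on low counts, and 5 to 6 when 1 library was left out. For the difference between the responses 2 were called, 1 with DESeq2 size factors, and 1 to 2 when 1 library was left out. With the replicate block 1 member was called for the difference, 4 on CC with the label normal and 6 with the label steatotic. Correlations of the deviations of same-numbered libraries were -0.0048 to 0.063, so the numbers were not taken as pairs. Whether such libraries shared mice is not given in the sources used here. Over all genes, 490 differences between the responses were called, 777 at an adjusted p under 0.1 and 296 to 424 when 1 library was left out, and the 1795 calls on CC with the label normal became 1014 to 1761. Signs changed only for values of members that were not called. For Egr3 with Veh, 0.04 became -0.0052 with library size only, -0.0092 with counts divided by 4 and -0.45 to 0.40 when 1 library was left out. For Junb the difference of -0.0056 became 0.014 with library size only, 0.0033 with no filter and -0.042 to 0.030 when 1 library was left out. Leaving out 1 library gave -0.37 to 0.0034 for Fosb with Veh and -0.52 to 0.037 for its difference, and for Fos -0.20 to 0.085 on CC with the label steatotic, -0.032 to 0.25 for the difference and -0.093 to 0.19 with CC between the livers. The cause was not tested. With counts divided by 4, Egr3 with CC was called between the livers (adjusted p = 0.0416). At these depths the rare members Egr3 and Fosb had the widest relative spread next to Egr2.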
